A study of Mus musculus with 2 samples.

Results

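Open promoters poor in CpG were examined in DNase-seq data of mouse hippocampus. They were chosen by a rule that used the peak calls: autosomal protein-coding genes of GENCODE M21 whose windows, reaching 1 kb to either side of each annotated transcription start site (TSS), held on average at most 20 CpG dinucleotides, with a peak of the longer deposited list in such a window in both libraries. The rule was met by 150 of 20807 genes, and the promoter peaks of these genes numbered 211 of 93545 peaks in replicate 1 and 193 of 79144 in replicate 2. CpG-poor genes with no such peak in either library, 3935 in number, are called closed and form the comparison. Both DNase-seq libraries came from tissue labelled as a layer of the hippocampus, without the layer being named. The mice were B6CASTF1/J, hybrid offspring of C57BL/6J and a wild-derived CAST parent, 25 days old, labelled male and given no treatment that the labels mention. The libraries are replicates 1 and 2 of 1 group. Each has its own tissue entry in the labels but both refer to 1 donor entry, so their spread may be technical, and with 1 group no condition could be tested against another. The male label of replicate 2 is in doubt from some sex-linked genes: Xist, the RNA of the inactive X chromosome, had 0 peaks in replicate 1 and 4 in replicate 2, and of 4 Y-linked genes Kdm5d, Eif2s3y and Ddx3y had peaks in replicate 1 alone, while Uty had 1 and 2. Chromosome Y as a whole held 40 and 39 peaks, which did not separate the libraries. Replicate 2 stands below for the library labelled male replicate 2. Only chromosomes 1 to 19 entered the counts.

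DNase I cuts DNA where nucleosomes are absent or displaced, and peaks of cuts mark promoters and enhancers that are open. Most mammalian promoters lie in CpG islands, which tend to be open in many cell types whether or not the gene is transcribed. Promoters poor in CpG are usually methylated and nucleosome-bound by default, open mainly in the cells that use them, and more often carry a TATA box, the sequence bound by TBP (the TATA-binding protein) upstream of the TSS. Genes of cell surface receptors, secreted proteins, immunity and specialised metabolism are common among them. A footprint is a short stretch inside a peak with fewer cuts than its surroundings, as a bound protein leaves.

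The strongest members, and members with a known motif inside a footprint, showed what such open regions look like in sequence. Shown are stretches of the promoter peaks that both libraries share, outside all annotated exons, read from GRCm38.p6 (the mm10 build) on the strand of the gene, 5′ to 3′. Capitals mark bases that lie in a footprint of both libraries. The sequences are those of the reference strain, and alleles of the CAST parent can differ from them.
Btbd17, chr11:114795281-114795560, minus strand: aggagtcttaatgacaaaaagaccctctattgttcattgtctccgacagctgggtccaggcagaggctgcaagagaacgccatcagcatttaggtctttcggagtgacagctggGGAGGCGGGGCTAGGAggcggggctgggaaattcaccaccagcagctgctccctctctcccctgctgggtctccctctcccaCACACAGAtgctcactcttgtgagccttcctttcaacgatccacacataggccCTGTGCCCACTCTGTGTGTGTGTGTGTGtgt
Nwd1, chr8:72646421-72646640, plus strand: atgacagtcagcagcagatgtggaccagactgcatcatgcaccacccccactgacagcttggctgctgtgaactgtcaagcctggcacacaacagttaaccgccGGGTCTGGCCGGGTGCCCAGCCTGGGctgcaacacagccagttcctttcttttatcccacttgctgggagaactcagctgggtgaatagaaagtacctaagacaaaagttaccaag
Gm28044, chr13:67360606-67360670, minus strand: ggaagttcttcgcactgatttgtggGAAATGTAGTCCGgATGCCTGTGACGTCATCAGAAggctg
1520401A03Rik, chr17:23706340-23706480, minus strand: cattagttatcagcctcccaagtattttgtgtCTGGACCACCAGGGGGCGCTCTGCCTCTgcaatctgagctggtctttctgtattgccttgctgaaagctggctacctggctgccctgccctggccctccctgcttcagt
9230104L09Rik, chr2:148851268-148851567, minus strand: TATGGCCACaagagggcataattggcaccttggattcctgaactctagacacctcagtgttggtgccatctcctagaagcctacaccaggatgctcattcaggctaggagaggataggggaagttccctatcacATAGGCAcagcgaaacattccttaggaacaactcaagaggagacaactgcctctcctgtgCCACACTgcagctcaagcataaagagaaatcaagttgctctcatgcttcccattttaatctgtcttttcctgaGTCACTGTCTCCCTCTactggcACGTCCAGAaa
Cyp4f16, chr17:32536401-32536557, plus strand: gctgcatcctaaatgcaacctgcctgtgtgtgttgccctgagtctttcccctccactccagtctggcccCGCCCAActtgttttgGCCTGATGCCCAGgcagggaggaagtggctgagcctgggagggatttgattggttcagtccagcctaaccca
Gpr35, chr1:92956721-92956920, plus strand: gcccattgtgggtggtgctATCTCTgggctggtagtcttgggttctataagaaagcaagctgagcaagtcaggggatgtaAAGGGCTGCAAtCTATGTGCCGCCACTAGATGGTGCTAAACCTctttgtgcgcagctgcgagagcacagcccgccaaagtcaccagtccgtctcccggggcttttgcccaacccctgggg
Npff, chr15:102525250-102525400, minus strand: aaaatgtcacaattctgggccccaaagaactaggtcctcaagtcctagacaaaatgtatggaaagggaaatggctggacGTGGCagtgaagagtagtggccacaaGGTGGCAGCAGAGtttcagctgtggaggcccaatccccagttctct

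The stretches lay between positions -633 and 756 relative to an annotated TSS of their gene. The Btbd17 stretch, 280 bases of an intron that began 313 bases after a TSS, held 6 CpG and 3 copies of the E-box CAGCTG, a site for basic helix-loop-helix factors, none of them in capitals. The Gm28044 stretch held TGACGTCA, the cAMP response element, with all 8 bases inside the shared footprint. In 1520401A03Rik a 28-base footprint covered AGGGGGC, the letters used here for the core of the CTCF site, and the stretch held 1 CpG. In 9230104L09Rik the shared footprint covered 4 of the 7 bases of an AP-1 site, TGAGTCA. In Cyp4f16 it covered 5 of the 6 bases of a GC box, CCGCCC, the site of SP factors. The Nwd1 footprint of 26 bases, the Gpr35 footprints and those of Npff matched none of the 29 motifs searched except for 1 base of a SOX match in Gpr35. A motif match is a match of letters and does not show which protein was bound. Each motif was searched as 1 pattern of letters, and other forms of its site were not counted. The CTCF site, searched as AGGGGGC alone, can thus be present where no match is given.

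An open promoter was rare among CpG-poor genes: 150 of 4195 (3.58%) had a peak in both libraries, beside 79.2% of the 16612 genes over 20 CpG and 63.9% of all autosomal protein-coding genes. These shares describe the selection and were not tested. Within the CpG-poor genes the share was 0.247% (95% exact interval 0.00625 to 1.37%) of 405 genes with at most 5 CpG per window, 0.778% of 1671 genes up to 10 CpG, 3.68% of 1167 genes up to 15 CpG and 9.77% (7.96 to 11.8%) of 952 genes up to 20 CpG. It did not jump at the chosen limit: 21% of 984 genes over 20 and up to 25 CpG were open. Another 110 CpG-poor genes had a peak in 1 library, 62 in replicate 1 alone and 48 in the library labelled male replicate 2 alone.

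**Figure D1:**
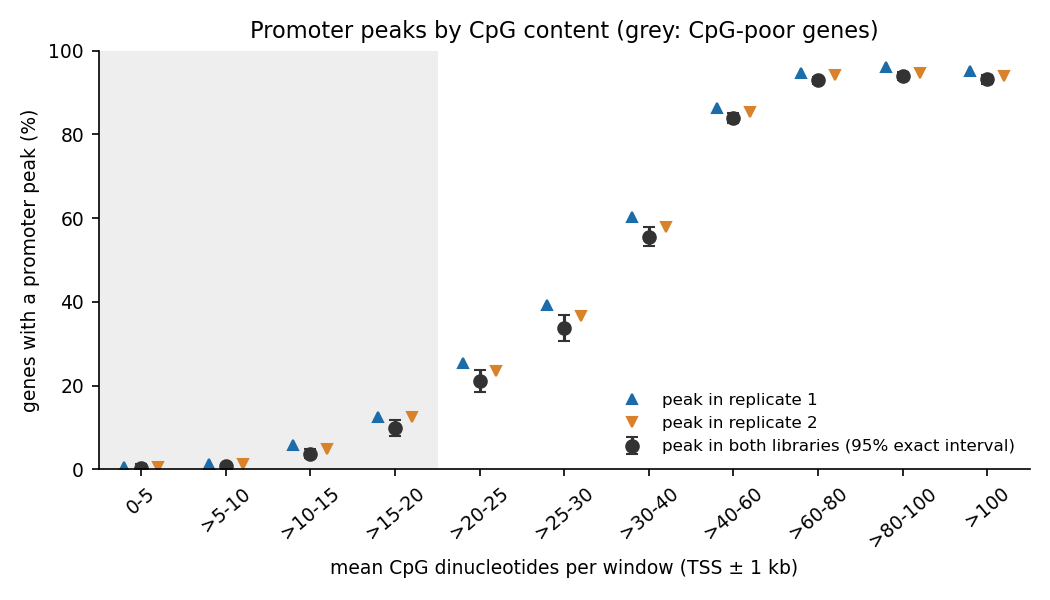
Share of autosomal protein-coding genes with a promoter peak (vertical axis, %) by mean CpG count per TSS ± 1 kb window (horizontal axis, bins); circles, peak in both libraries with 95% exact intervals, triangles, each library alone. The share goes from 0.247% at up to 5 CpG through 9.77% at over 15 to 20 CpG to 93.0% at over 60 to 80 CpG, and the grey bins are the CpG-poor genes.

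Values just inside and just outside the limit are given as a description. Among the members at exactly 20 CpG, Btbd17 had a strongest promoter peak of 2.78 and 2.42 (the authors' signal, replicates 1 and 2), Ccl11 of 0.509 and 0.548, and Fam71f2 of 0.382 and 0.503. Just outside, Scn1a at 20.1 CpG had 1.43 and 0.844, Lsp1 at 20.2 CpG had 0.502 and 0.535, and Fggy, also at 20.2 CpG, had 2.88 and 3.15.

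The average in the rule hid variation between the start sites of a gene. In 79 of the 150 members every window held at most 20 CpG, and in the other 71 at least 1 window held more. In 52 members the strongest peak lay nearest a window over 20 CpG in both libraries. Cep295, which encodes a centriole protein, is the clearest case: its 13 TSS averaged 19.2 CpG, and its peak lay at a TSS with 74 CpG. Members with every window at or under 20 CpG had a median strongest peak of 0.544 and 0.477 in replicates 1 and 2, and the others 0.869 and 0.761. A promoter peak of the shorter deposited list, whose peaks hold a base with a false discovery rate of at most 0.001, was present in both libraries for 17 of the 79 (21.5%) and 46 of the 71 (64.8%). Members with a start site richer in CpG thus had the higher medians in both libraries.

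Peaks of members were weak beside those of other open promoters. The strongest promoter peak of a member had a median of 0.643 in replicate 1 (range 0.212 to 2.78) and 0.577 in the library labelled male replicate 2 (0.174 to 2.93). In open genes over 20 CpG the medians were 2.28 and 2.17, and 2 members in replicate 1 and 4 in replicate 2 exceeded them. CpG-poor genes with a peak in 1 library alone were weaker again, with medians of 0.314 and 0.351. The value exceeded 1 in both libraries in 28 members and was under 0.5 in both in 36. The libraries gave values within 1.5-fold of each other in 129 members (86.0%), and replicate 1 was the higher in 89. Promoter peaks of both libraries overlapped by at least 1 bp in 143 members, while in others, among them Cd74, Gpr161, Gm45213, Rnase1 and Olfr373, they lay at different places. Those genes rest on separate peaks in each library.

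**Figure D2:**
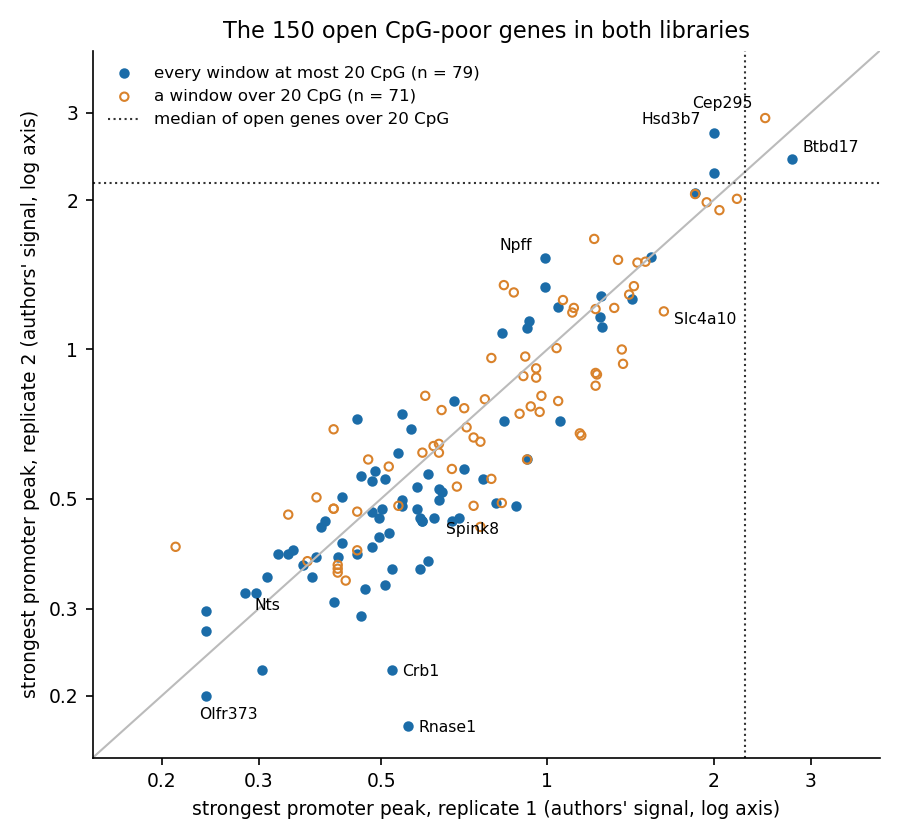
Strongest promoter peak of each of the 150 members in replicate 1 (horizontal axis) and replicate 2 (vertical axis), the authors' signal on log axes; filled, genes with every window at most 20 CpG (79), open, genes with a window over 20 CpG (71); dotted lines, medians of open genes over 20 CpG (2.28 and 2.17). Most members sit under both dotted lines and along the diagonal, and Rnase1 and Crb1 lie farthest below it.

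The largest ratios between libraries were those of the following genes. Rnase1, a secreted ribonuclease, had 0.558 in replicate 1 against 0.174 for the library labelled male replicate 2, Crb1, a cell polarity protein, 0.523 and 0.226, and Npsr1, the neuropeptide S receptor, 0.876 and 0.483. Among the largest in the other direction, Rgsl1 had 0.410 and 0.690, and Hsd17b6, a steroid and retinol dehydrogenase, 0.834 and 1.35. The lowest means were those of Olfr373 (0.240 and 0.200), Agmo (0.240 and 0.271), which cleaves ether lipids, and the casein gene Csn1s2a (0.304 and 0.226).

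The strongest members had peaks in the range of ordinary CpG-rich promoters, but many of these peaks lay nearest a window over 20 CpG. That window held 74 CpG for Cep295, 61 for Rttn, 58 for Ttc37, 37 for Ankef1 and 31 for Gm28044. It held 28 for Zbbx, 27 for Slc4a10, 22 for Nwd1 and 21 for Gpr35. For Btbd17, Hsd3b7, Amh, Gm10964, 9230104L09Rik and 1520401A03Rik it held 20, 16, 18, 11, 16 and 17. Cep295 had 2.48 and 2.93, at chr9:15357501-15357880 in replicate 1. Btbd17, a BTB domain gene, had 2.78 and 2.42 in its intron, and Hsd3b7, an enzyme of bile acid synthesis that acts on oxysterols, 2.00 and 2.73 just before its TSS. For comparison, all promoter peaks of members had a median of 0.579 and 0.548. Amh, anti-Müllerian hormone, had 2.01 and 2.26 at chr10:80805981-80806180, in its coding sequence 838 bp after its only TSS, so that this opening is not at the start site itself. Ankef1 followed with 2.20 and 2.01, Gm28044 with 2.05 and 1.91, and Ttc37, a subunit of the SKI complex that feeds RNA to the exosome, with 1.94 and 1.98. Gm10964 had 1.85 and 2.07, centred at -925 and -895 bp from its TSS, and Nwd1 1.85 and 2.06. Of these, the strongest peaks of Gm28044, Ttc37 and Gm10964 also lay in the window of another protein-coding gene, and such a peak cannot be assigned to 1 gene. Next came 9230104L09Rik (1.54 and 1.53), 1520401A03Rik (1.51 and 1.5), Rttn (1.46 and 1.5), a centriole protein gene, Gpr35 (1.22 and 1.67), Zbbx (1.34 and 1.51) and Slc4a10 (1.63 and 1.19). Slc4a10, a sodium-coupled bicarbonate transporter of neurons and choroid plexus, was open in its intron about 1 kb into the gene, 1076 and 1016 bp after the TSS.

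Most genes that define neurons are not in this set, since their promoters are rich in CpG. None of the 19 pan-neuronal, 16 excitatory, 27 activity-regulated, 26 synaptic vesicle and 25 glutamate receptor genes listed were CpG-poor, and all 19 pan-neuronal and all 27 activity-regulated genes had a promoter peak in both libraries. Of the excitatory, synaptic vesicle and glutamate receptor genes 15, 24 and 23 had one, and of 24 inhibitory neuron genes over 20 CpG 15 did. For comparison, 79.2% of all genes over 20 CpG and 72 of 75 cytosolic ribosomal protein genes had one. These counts thus do not by themselves check the tissue label. Of 24 genes of CA pyramidal cells, the principal neurons of the CA fields, 4 were CpG-poor, 3 of these were open and Lct had a peak in replicate 1 alone (0.431). Spink8, a protease inhibitor gene used as a CA1 marker, had 0.622 and 0.458, with the peak in its 5′ untranslated region. Dcn, which encodes the matrix proteoglycan decorin, had 0.375 and 0.348. Dcn is also a fibroblast gene and stands in the meningeal list, where Lum and Col3a1 were closed. Nts, the neuropeptide neurotensin, had 0.283 and 0.322. All 3 lie below the members' median in both libraries. Of 16 dentate granule cell genes 2 were CpG-poor and 0 were open in both libraries: Lct, which stands in both lists, had its peak in replicate 1 alone and Tdo2 was closed. Over all CpG-poor genes 3.58% were open. Counts of 4 and 2 genes are too small to set the CA and dentate lists against each other.

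Some receptors and signalling peptides were members. Of 3 CpG-poor neuropeptide and hormone genes, 2 were open and Vip was closed. Npff, neuropeptide FF, which modulates opioid signalling, had 0.989 and 1.53, from a peak upstream of its TSS. Of 6 CpG-poor monoamine, acetylcholine and opioid receptor genes, 2 were open. Oprl1, the nociceptin receptor, had 0.791 and 0.960, and the serotonin receptor gene Htr2b 0.360 and 0.367, while Htr3b and Chrnb3 were closed. Of 5 CpG-poor potassium channel genes Kcnk16 was open (0.608 and 0.561), and all 3 CpG-poor GABA receptor genes, Gabra6, Gabrp and Gabrr3, were closed. Genes named Gpr with a number, mostly orphan G protein-coupled receptors, were grouped after the members had been seen: 5 of 14 CpG-poor ones were open, 35.7% beside 3.58% of all CpG-poor genes. The peaks of Gpr21 also lay in the window of another protein-coding gene, one over 20 CpG, and those of Gpr161 did not overlap between the libraries. Gpr61 had 1.42 and 1.26 close to its only TSS, and Gpr22 0.926 and 1.14. Gpr161, a regulator of Hedgehog signalling in cilia, had 0.636 and 0.619, and Gpr21 0.643 and 0.516. Trhr, the receptor of thyrotropin-releasing hormone, was among the weaker members with 0.346 and 0.393.

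Adhesion molecules, transcription factors and glial genes followed. Cdh9, a cadherin of synapses, was the only open gene of 5 CpG-poor claudin and cadherin genes, with 0.954 and 0.915. The neurexin-like adhesion genes Cntnap5b (0.756 and 0.651) and Cntnap3 (0.452 and 0.393) were the only CpG-poor Cntnap genes, and both were open. Over all CpG-poor genes 3.58% were open. The related zinc finger transcription factor genes Myt1 (1.22 and 0.896) and St18 (0.968 and 0.748) were members too, as were Ndst4 (0.904 and 0.883), which sulfates heparan sulfate, and Ano3 (0.975 and 0.806). The CpG-poor oligodendrocyte genes Mog and Ermn, which encode myelin proteins, were closed. None of 5 CpG-poor astrocyte genes was open in both libraries. Agt (0.841), Mlc1 (0.438) and Slc39a12 (0.353) had a peak in replicate 1 alone, S100b (0.825) in the library labelled male replicate 2 alone, and Aqp4 in neither. The Cntnap genes, Myt1, St18, Ndst4 and Ano3 were named after their values were seen. In both libraries the strongest peaks of Cntnap5b, Cntnap3, Ano3, Ndst4, Cdh9 and St18 lay nearest a window over 20 CpG. These windows held 35, 30, 29, 25, 24 and 21 CpG, and that of Myt1 held 19.

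Marker genes of the remaining brain cell types were closed for the most part. All 6 CpG-poor microglia and macrophage genes, among them Ptprc and Fcrls, and all 4 endothelial genes, among them Ly6a and Slco1c1, had no promoter peak in either library. Of these, 3 of the 6 and 2 of the 4 had peaks outside promoter windows within 10 kb of the gene in both libraries, and the genes named were chosen as those with the most: 2 and 2 for Ptprc and for Fcrls, 3 and 2 for Ly6a, and 1 and 1 for Slco1c1. Cd163, Cd53, Siglech and Ly6c1 had none in either library. Of 4 CpG-poor ependymal and choroid plexus genes Ttr, the thyroid hormone carrier transthyretin, was open with 0.424 and 0.406, from a peak about 1 kb into the gene, while Tmem212 and Kcne2 were closed. Of 4 CpG-poor erythroid genes Hbb-bs was open with 0.311 and 0.348, about 1 kb after its TSS. All of these counts are small, and a closed call is the usual state of a CpG-poor gene, with 3935 of 4195 closed. In bulk tissue, fewer cells of a type and less opening per cell cannot be told apart.

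Immune genes were among the members although markers of microglia and lymphocytes were not. Of 46 CpG-poor chemokine and interleukin genes and their receptors 4 were open (8.70%). For comparison, 3.58% of all CpG-poor genes were open, and 5.13% with olfactory, vomeronasal and taste receptor genes left out. Il18 had 0.919 and 0.599 and shared its peaks with its neighbour Bco2, a carotenoid-cleaving enzyme gene. The chemokine genes Ccl11 and Ccl2 had 0.509 and 0.548, and 0.495 and 0.458. Of 29 CpG-poor interferon-inducible genes, a family put together after the members were known, 7 were open (24.1%): Herc6, Ifi203, Ifi44l, Ifit1bl1, Mndal, Samd9l and Sp100. Ifi203 and Mndal share a promoter peak in each library, which is the strongest of Mndal in replicate 2, so that this region counts for both genes. The medians of the 7 genes were 0.594 and 0.496, close to those of all members. In both libraries the strongest peaks of Herc6 and Sp100 lay nearest windows with 29 and 28 CpG. Complement C3 had 1.37 and 0.935, from an intron peak 601 and 621 bp after a TSS inside the gene. The window of that TSS held 25 CpG, and repeats covered 79.4% and 83.2% of the peak. H2-Aa, a chain of an antigen-presenting MHC class II molecule, and Cd74, the chaperone of such molecules, had 0.678 and 0.786, and 0.565 and 0.690. Serpins, inhibitors of proteases, were likewise grouped after the members were known. Of 41 CpG-poor ones 5 were open (12.2%), led by Serpinb9 (1.43 and 1.34), an inhibitor of granzyme B. Serpina3n, known from reactive astrocytes, had 0.834 and 0.715. Of 7 CpG-poor lymphocyte genes none was open and Rag1 had a peak in replicate 1 alone (0.509). Whether these peaks come from neurons, glia or blood-derived cells was not tested.

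Metabolic, ciliary and zinc finger genes formed the next groups. Of 55 CpG-poor cytochrome P450 genes 3 were open (5.45%), near the 5.13% of all CpG-poor genes without olfactory, vomeronasal and taste receptor genes. All 3 were of the Cyp4f family, whose enzymes hydroxylate fatty acids and leukotrienes. Cyp4f16 had 0.919 and 1.10, Cyp4f15 0.424 and 0.503, and Cyp4f14 0.325 and 0.387, while Cyp4a14 and Cyp4f18 were closed. Itih1 (1.26 and 1.11) and Itih3 (0.806 and 0.490), which encode plasma proteins that bind hyaluronan, were 2 of 3 CpG-poor Itih genes. Star, which moves cholesterol into mitochondria for steroid synthesis, had 0.473 and 0.599. Of 4 CpG-poor axonemal dynein genes, which encode the motors of motile cilia, Dnah7b (0.636 and 0.645), Dnah7c (0.671 and 0.574) and Dnhd1 (0.714 and 0.696) were open. Iqub, a protein of ciliary radial spokes, had 1.24 and 1.16, and Armc4, needed to dock dyneins, 0.410 and 0.477. Of 28 CpG-poor solute carrier genes Slc4a10 and the peptide transporter gene Slc15a2 (0.622 and 0.638) were open, a share of 7.14%. Of 23 listed CpG-poor C2H2 zinc finger genes Zfp950 (1.22 and 1.21) and Zfp983 (0.890 and 0.741) were open. The list was not complete: Zfp729a, outside it, was also a member, with 1.41 and 1.29. Its strongest peaks also lay in the window of another protein-coding gene. Col5a2, a fibrillar collagen gene, was the open member among 5 CpG-poor collagen genes, with 0.452 and 0.471, and Col22a1, with 8 peaks in each library in or near the gene outside promoter windows, was closed. The dynein, Itih and single genes here were named after their values were seen. Many of the strongest peaks here lay nearest a window over 20 CpG in both libraries. That window held 46 CpG for Dnah7c, 36 for Dnah7b, 32 for Armc4, 30 for Zfp729a and 29 for Dnhd1. It held 28 for Col5a2, 25 for Zfp983, 24 for Star, 23 for Zfp950 and 22 for Slc15a2. For Iqub, Itih1, Cyp4f16, Itih3 and Cyp4f15 it held 20, 20, 17, 16 and 13.

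Genes of other tissues were closed with few exceptions. Of 1048 CpG-poor olfactory receptor genes 8 were open (0.763%), with Olfr525 (0.707 and 0.574) the strongest, and of 359 vomeronasal and taste receptor genes 1 was open, Vmn1r199 (0.481 and 0.541). Without these chemoreceptors 141 of 2747 CpG-poor genes were open (5.13%). Of 40 CpG-poor keratin genes Krtap13-1 was open (0.587 and 0.458), of 73 defensin and kallikrein genes Defb42 (0.417 and 0.355), and of 15 liver genes only Ttr. None of 13 pancreas and gut genes and none of 3 germ line genes was open in both libraries. Ins2 and Lct of the gut and pancreas list had a peak in replicate 1 alone.

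The members' peaks were centred on start sites as those of CpG-rich genes were. Their middle lay within 100 bp of the nearest TSS of the gene in 36.0% (29.5 to 42.9%) of peaks in replicate 1 and 38.9% in replicate 2, and within 250 bp in 58.8% and 61.1%. For open genes over 20 CpG the share within 250 bp was 57.3% in replicate 1. Among peaks of like strength, those between the quartiles of the members' peak values, the members' peaks were closer to the TSS: the median distance was 179 bp against 394 bp in replicate 1. In that range 83.3% of the members' peaks overlapped a peak of the other library, against 60.6% of the peaks of CpG-rich genes. These peaks numbered 108 in members and 7440 in the others. In open genes over 20 CpG the strongest promoter peak had a lower quartile of 1.55 in replicate 1, above this range. Most of their peaks here were thus not the strongest of their gene. Whether the differences in distance and sharing come from this was not tested. Since the rule asked for a peak in both libraries, the sharing is a description. In replicate 1 the middle of 64 peaks lay in an untranslated region, of 66 in an intron, of 55 upstream of the gene and of 20 in coding sequence. The members' peaks were narrower, with a median of 229 and 201 bp against 340 bp in replicate 1 for genes over 20 CpG.

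**Figure D3:**
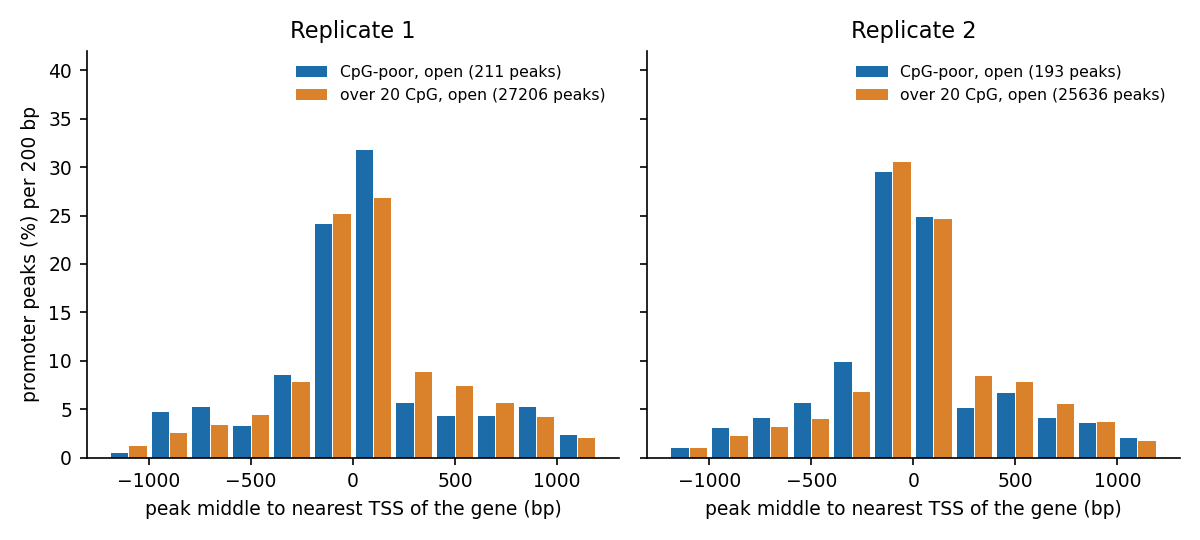
Share of promoter peaks (vertical axis, % per 200 bp) by distance of the peak middle from the nearest TSS of the gene (horizontal axis, bp, negative upstream), in replicate 1 (left) and replicate 2 (right), for members and for open genes over 20 CpG. In both groups the bins beside the TSS are the highest.

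Promoter peaks held more CpG than the rest of the windows, and most so in members with a richer start site. Promoter peaks of members held 1.83 CpG per 100 bp in replicate 1 and 1.97 in replicate 2, and the rest of their windows 0.724 and 0.726, ratios of 2.52 and 2.71. The peak was the denser part in 107 and 105 of the 150 genes. In the 79 members with every window at most 20 CpG the peaks held 1.08 CpG per 100 bp in each library and the rest 0.648 and 0.656, ratios of 1.67 and 1.65, and the peak was denser in 48 and 49 genes. In the other 71 the ratios were 3.11 and 3.32. In genes over 20 CpG the ratios were 4.13 and 4.01. In 16 members in replicate 1 and 23 in replicate 2 the promoter peaks held no CpG at all. In replicate 1 the strongest peaks of Ttr and Htr2b held none. The window CpG was part of the rule, but its place inside the window was not.

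**Figure D4:**
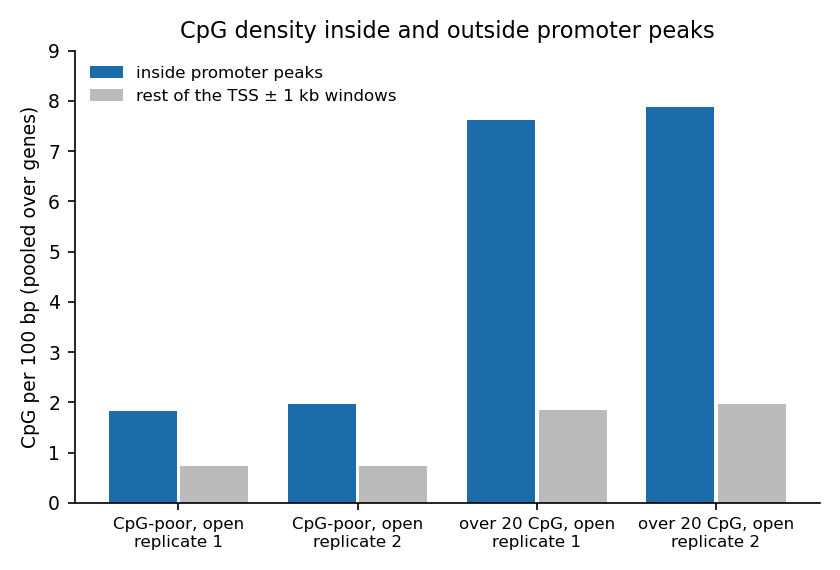
CpG per 100 bp, pooled over genes (vertical axis), inside promoter peaks and in the rest of the TSS ± 1 kb windows, for the 150 members and for open genes over 20 CpG in each library. Peaks of members hold 1.83 and 1.97 CpG per 100 bp against 0.724 and 0.726 in the rest of their windows.

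Footprints were found in 70.6% (64.0 to 76.7%) of the members' peaks in replicate 1 and in 71.5% in replicate 2, against 80.5% of promoter peaks of genes over 20 CpG in replicate 1. Among peaks between the quartiles of the members' values the order was the other way, 69.4% against 63.5% in replicate 1 and 77.6% against 60.6% in replicate 2. The peaks of genes over 20 CpG in that range were mostly not the strongest of their gene. A footprint lay in a promoter peak in both libraries in 102 members and in neither in 10. Footprint detection depends on the number of cuts, which is unknown here.

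Open and closed CpG-poor genes also differed in gene structure and neighbourhood. Members had a median of 16.7 CpG per window, 3 TSS, 44.0% GC in their windows and a gene length of 18.1 kb, and closed genes 10, 2, 40.5% and 7.02 kb. A gene with more TSS has more windows in which a peak can fall: the windows of a member covered a median of 4.04 kb and those of a closed gene 2.05 kb. Of genes with 1 TSS 1.34% (23 of 1719) were open, of genes with 2 or 3 TSS 3.19%, and of genes with 4 or more 12.7%. Repeats covered a median of 18.7% of the members' windows and 19.2% of those of closed genes. The nearest open promoter of a gene over 20 CpG was a median of 42.7 kb away from members and 184 kb from closed genes, and within 10 kb in 22% and 4.70%. A window of another protein-coding gene overlapped one of the member's in 19 (12.7%, 7.80 to 19.1%) against 3.35% of closed genes. Leaving out genes with a shared window left 131 members. At least 1 peak outside promoter windows lay within 10 kb of the gene in 52.7% and 51.3% of members and in 21.3% and 22.1% of closed genes. Longer genes offer more room for such peaks. Leaving out chemoreceptors, which make up 36.2% of closed genes, brought the closed medians to 12 CpG per window and 8.44 kb and the share with such a peak to 29.8% and 30.6%.

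A TATA box was less common in open than in closed CpG-poor genes. TATAAA began 45 to 20 bases before an annotated TSS, on the sense strand, in 7 of 150 members (4.67%, 1.90 to 9.38%) and in 368 of 3935 closed genes (9.35%, 8.46 to 10.3%). At 1 reference TSS per gene the shares were 1.33% and 7.52%. The members have more TSS and so more places for a match, and among genes with 1 TSS 0 of 23 members (interval up to 14.8%) and 9.89% of 1669 closed genes had one. Open genes over 20 CpG had 3.49%, near the members' share. Without chemoreceptors the closed share was 11.2%. The same letters in reverse order, AAATAT, stood at these places in 5.33% of members and 3.53% of closed genes, and TATAAA was thus above its reversal in closed genes and not in members. Over the 300 bases from 250 before to 50 after the reference TSS, TATAAA was found on the sense strand in 10 members (6.67%), in 21.8% of closed genes and in 8.73% of all autosomal coding genes. AAATAT was also less common there in members, 9.33% against 17.1%, a difference in the same direction as that of TATAAA. The median GC content of these 300 bases was 49.5% in members and 42.3% in closed genes. Inside the members' peaks 11 matches in replicate 1 and 9 in replicate 2 were found on either strand, and 0 of them had their middle base in a footprint. In peaks of genes over 20 CpG 8.40% and 11.2% of such matches did. That a member has no match says only that these letters are not in this stretch.

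An E-box and the GC box were more frequent in members than in closed genes. CAGCTG, which reads the same on both strands, was present in those 300 bases in 46 members (30.7%, 23.4 to 38.7%), in 13.6% (12.6 to 14.7%) of closed genes, in 16.4% of closed genes without chemoreceptors, in 14.6% of open genes over 20 CpG and in 15.5% of all promoters of this length. CTGCAG, a palindrome of the same letters, was present in 19.3% (13.3 to 26.6%) of members and 13.8% of closed genes. The GC box GGGCGG, searched on both strands, was present in 15.3% (9.98 to 22.1%) of members, 2.95% of closed genes, 63.9% of open genes over 20 CpG and 46.2% of all promoters, and it holds a CpG itself, which the rule limited. CAGATGG, the E-box of NeuroD factors, which act in hippocampal granule and pyramidal neurons, was present in 9.33% (5.20 to 15.2%) of members, 6.0% of closed genes and 4.42% of all promoters. Its reversal GGTAGAC was present in 1.33% and 1.73%. CCAAT, the NF-Y site, was present in 39.3% and 42.7%, and AP-1 (TGANTCA) in 11.3% and 12.5%, with intervals that overlap.

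**Figure D5:**
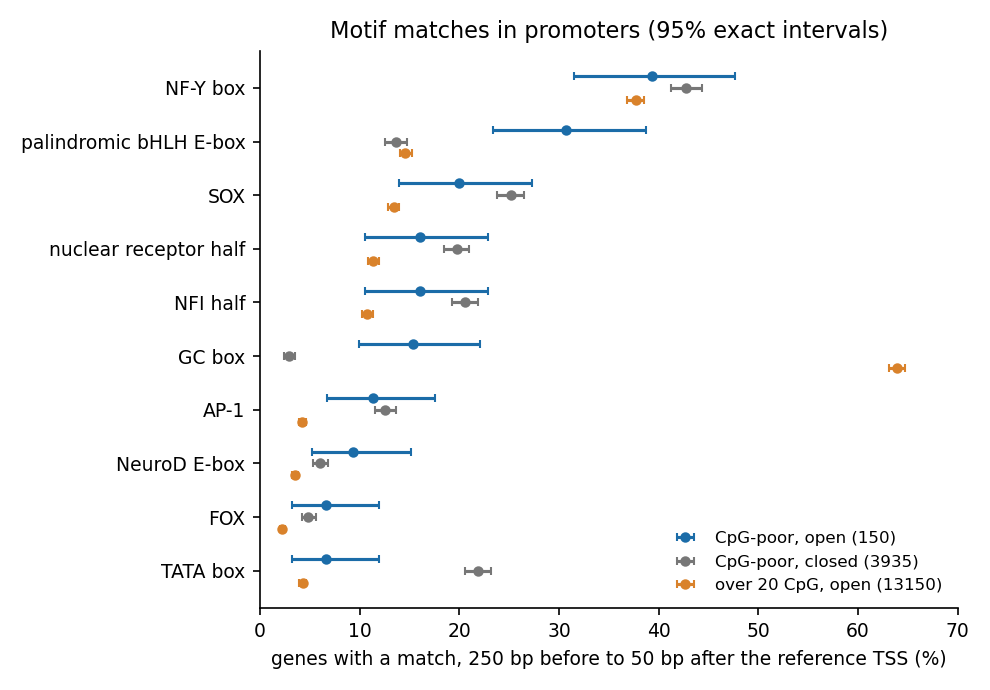
Share of genes with a motif match from 250 bp before to 50 bp after the reference TSS (horizontal axis, %) with 95% exact intervals, for members (150), closed CpG-poor genes (3935) and open genes over 20 CpG (13150), for motifs present in at least 10 members. The palindromic E-box is CAGCTG: 30.7% of members against 13.6% of closed genes, while the TATA box stands at 6.67% against 21.8%, and its reversal, not drawn, at 9.33% against 17.1%.

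Inside the members' peaks the NeuroD E-box was present in 13.3% of peaks in replicate 1 and 10.4% in replicate 2, against 5.65% and 4.81% of promoter peaks of genes over 20 CpG. Of its 29 and 20 matches in members' peaks, only 7 and 5 (24.1% and 25.0%) had their middle base in a footprint, against 14.8% and 15.1%. CAGCTG was present in 25.1% and 24.4% of members' peaks and in 20.9% and 18.8% of the others. In members' peaks 9.84% and 9.09% of its matches lay in footprints, against 11.9% in each library for the others. Members with a match in a footprint of both libraries included D7Ertd443e and Tmprss5 for the NeuroD E-box, Lamb3, a laminin gene, for CAGCTG, Hsd3b7, Msantd1 and 1520401A03Rik for the CTCF core, Gm28044 for the cAMP response element, 9230104L09Rik for AP-1, Ttc37 for NRF1, and Cep295, Gm10964, Gm14410 and Tmem45a for CCAAT. GC boxes in such footprints were those of Cep295, Cyp4f16, Iqub and Zfp983.

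The authors' FDR files list bases with a false discovery rate under 0.05, and every peak of the longer list holds such a base, so that few are left in genes chosen for having no peak, and weaker signal cannot be seen in these files. With that limit, 26 of 3935 closed genes (0.661%) had such a base in a window in replicate 1, 40 (1.02%) in replicate 2 and 7 (0.178%) in both. In 98.5% neither library had one. Of the 110 genes with a peak in 1 library, 12 had such a base in both libraries. Their strongest value was 1.13, in Tmprss7 in the library labelled male replicate 2, followed by 0.904 in Wfikkn1 in replicate 1.

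Some members belong to families of near-identical copies. The strongest peak of 19 members (12.7%) matched another place of the reference genome at 90% identity or more over at least 80% of its length in at least 1 library, so that its reads could be shared with that copy. These were Gm14322, Gm14410 and Gm14305, with 35 copies each, the zinc finger genes Zfp729a and Zfp983, the interferon-inducible genes Ifi203, Mndal and Samd9l, Cyp4f16, Hbb-bs, Serpina3f and Serpina3n, the olfactory receptor genes Olfr317, Olfr373 and Olfr536, and Ear14, Clec2d, Gm3404 and Akr1c19. The other 131 members had no such copy. The sources used here do not say how the authors treated reads that match several places, and its part in these calls was not tested.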

How the data were processed

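DNase-seq was analysed from 2 libraries of 1 group. For each library the authors deposited a longer and a shorter peak list, footprints, and FDR values for runs of bases, in mm10 coordinates per the file headers and labels. The peak value is the authors' signal per library, whose scaling, like the aligner and callers, was not given in the sources used here, so the number of cuts behind a peak is unknown. The FDR column holds q-value type numbers per run, deposited for bases under 0.05. A check of the files found such a base in every peak of the longer list, and in every shorter-list peak a base at 0.001 or less. Replicates were not pooled per the labels.

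The annotation was GENCODE M21, and sequence was read from GRCm38.p6. CpG were counted in each TSS ± 1 kb window and averaged over the distinct TSS of a gene. A peak was counted with at least 1 bp of overlap, and a gene's value is its strongest promoter peak. The reference TSS is that of the transcript with the best APPRIS tag, then the basic tag, support level and length. Shares carry exact (Clopper-Pearson) 95% intervals, which cover counting error only. Sequence copies were searched with blastn 2.17.0. Scripts ran in Python 3.11.15 with pandas 2.3.3, numpy 2.4.6, matplotlib 3.10.9 and scipy 1.17.1, and the counting code was tested on simulated data against known answers and bedtools 2.31.1. No test between conditions was possible.

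The members, 39 gene lists and 29 motifs were chosen with earlier results of these data known. Named genes are the 15 members with the highest mean value, the 2 strongest open and the 2 closed genes with the most distal peaks of each list, the 3 largest ratios in each direction, the 3 nearest the CpG limit on each side and the 3 lowest; others were chosen after their values were seen. Values of some genes that this rule selects are not reported here.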

Additional observations from a re-analysis of the deposited data

How the results depend on the processing

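The count of 150 open CpG-poor genes depends on where the limits are set. It was 57 with at most 15 CpG, 357 with at most 25, 79 when every window had to hold at most 20, 87 with windows of 500 bp on each side and at most 10 CpG, and 63 with the shorter peak list. Under 6 further definitions of TSS, overlap, neighbours and sequence copies it stayed between 103 and 145, and with 1 library alone between 198 and 212. The TATA box share was lower in open than in closed genes under all 15 settings with TATAAA, the reported one included, and higher (5.33% against 3.53%) for AAATAT. In open genes it was 0.971% with the reference TSS alone and 1.59% with the shorter list, each from 1 gene, and 5.05% and 4.72% without replicate 1 or 2. In closed genes it was 7.22% with the reference TSS alone, 12.6% for TATAAA 60 to 10 bases before a TSS, 13.7% for TATAAA or TATATA, 11.2% without chemoreceptors and 3.53% for AAATAT, the last 2 chosen after seeing the data. The mean share of members' peaks with a footprint, 71.1 ± 0.627% (SD, n = 2), was 66.8% with at most 15 CpG, 76.0% with at most 25, 68.3% when every window had to hold at most 20, 65.6% with the smaller windows, 72.6% with basic transcripts alone, 83.9% with the shorter list, 75.5% when peaks had to overlap between libraries and 69.8% without shared windows, and 63.5 to 66.9% with 1 library. The cause of these shifts was not tested. With 500 bases before to 100 after the TSS, CAGCTG was present in 40.7% of open and 23.6% of closed genes. Within 250 bp of a TSS 0.0254% of closed genes had a base listed by FDR in both libraries, a share that the choice of genes without a peak largely fixes. No paired analysis was possible because the 2 libraries form 1 group. Depth is unknown, so weak peaks of 1 library cannot be told from undersampling in the other.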
